A study of Mus musculus with 144 samples.

Results

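The *Cyp2* and *Cyp3* genes of the mouse encode the cytochrome P450 enzymes that oxidize most drugs, many environmental chemicals, and a range of fatty acids, steroids and vitamins. Members were taken as the protein-coding genes whose symbol is *Cyp2* or *Cyp3* followed by a subfamily letter and a number, without pseudogenes, and no measured value was used to choose them. This gave 55 of the 55359 genes counted, of which 52083 carried a symbol. Of the 55, 43 had enough reads to be tested across the whole time course. The other 12 were *Cyp2b13*, *Cyp2b19*, *Cyp2c39*, *Cyp2c66*, *Cyp2j7*, *Cyp2j8*, *Cyp2j11*, *Cyp2j12*, *Cyp2j13*, *Cyp2w1*, *Cyp3a16* and *Cyp3a57*, and 3 of these (*Cyp2j7*, *Cyp2j11* and *Cyp2j12*) had no read in any library. Most members lie in tandem groups, with *Cyp2e1*, *Cyp2r1*, *Cyp2u1*, *Cyp2w1*, *Cyp3a13* and *Cyp2c23* apart from them. There are 15 on chromosome 7, 15 (all *Cyp2c*) on chromosome 19, 8 *Cyp2d* genes on chromosome 15, 8 *Cyp2j* genes on chromosome 4, 8 genes including *Cyp3a* on chromosome 5 and 1 on chromosome 3.

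RNA-seq was performed on primary hepatocytes of male mice aged 28 days, cultured on type I collagen in medium with dexamethasone. Cells were of the strain C57BL/6NCrl, called WT, or of the line labelled Pkm-delta-DRE, called PkmΔDRE, in which the intronic dioxin response element (DRE) of *Pkm* was deleted in every cell of the animal by genome editing. Each was treated with 10 nM of the dioxin TCDD, a persistent agonist of the aryl hydrocarbon receptor (AHR), or with DMSO vehicle, for 2, 4, 8 or 12 h, or for 24, 48, 72, 96 or 120 h, with 4 libraries in each of the 36 groups. The labels do not say whether the 4 libraries of a group came from separate animals or wells, so p-values measure the spread between these libraries, which may be technical.

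P450 enzymes sit in the membrane of the endoplasmic reticulum, bind heme, and receive electrons from NADPH-cytochrome P450 reductase (*Por*). In liver most members are kept high by hepatocyte factors such as HNF4A and C/EBPα, and several are induced by drugs through the nuclear receptors CAR (*Nr1i3*) and PXR (*Nr1i2*), while the classical AHR targets belong to the *Cyp1* family. Many members, among them *Cyp2e1* and *Cyp2a5*, are concentrated in hepatocytes around the central vein, and P450 transcripts are known to fall when hepatocytes are plated.

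The results under TCDD turned on a run of genes on chromosome 7, so the 250 bases before the start of 4 of its genes are shown, from RefSeq and build GRCm38.p6. *Cyp2a4* (chr7:26306942-26307191, + strand) and *Cyp2a5* (chr7:26835089-26835338, + strand) each hold a C/EBP core (TTGCNNAA) and an HNF4A core (CAAAGTCC), given in capitals. *Cyp2a12* (chr7:27028840-27029089, + strand) and *Cyp2a22* (chr7:26939387-26939636, - strand) hold neither core, nor the DRE core GCGTG, nor the antioxidant response element core TGACNNNGC.
*Cyp2a4*: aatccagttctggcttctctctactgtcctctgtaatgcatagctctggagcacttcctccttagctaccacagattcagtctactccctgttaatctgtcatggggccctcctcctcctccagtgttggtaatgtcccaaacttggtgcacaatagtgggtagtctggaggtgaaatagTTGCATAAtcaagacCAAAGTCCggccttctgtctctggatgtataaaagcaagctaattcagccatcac
*Cyp2a5*: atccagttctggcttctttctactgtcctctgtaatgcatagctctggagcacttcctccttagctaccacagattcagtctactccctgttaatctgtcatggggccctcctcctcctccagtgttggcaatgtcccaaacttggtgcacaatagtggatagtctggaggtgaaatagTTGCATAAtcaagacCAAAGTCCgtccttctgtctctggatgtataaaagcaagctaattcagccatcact
*Cyp2a12*: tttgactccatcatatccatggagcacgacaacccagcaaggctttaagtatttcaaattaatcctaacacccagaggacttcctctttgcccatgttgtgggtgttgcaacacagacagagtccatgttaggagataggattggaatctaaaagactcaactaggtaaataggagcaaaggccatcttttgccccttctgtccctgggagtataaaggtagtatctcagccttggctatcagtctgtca
*Cyp2a22*: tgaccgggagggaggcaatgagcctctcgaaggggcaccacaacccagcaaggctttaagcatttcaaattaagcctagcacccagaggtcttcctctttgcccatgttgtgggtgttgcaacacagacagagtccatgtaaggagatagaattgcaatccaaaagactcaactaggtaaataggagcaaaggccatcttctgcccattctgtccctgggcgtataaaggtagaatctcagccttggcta

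The sequences show 2 pairs of near copies. Both strands were searched from 250 bases before to 50 bases after the start, a window that runs past the bases shown. In the 50 promoters listed for 47 members, the HNF4A core was found in 22% of member promoters and in 1.42% of all 32851 promoters, and the C/EBP core in 30% and 10.8%. The DRE core, which AHR binds, was found in 8 member promoters, that is 16%, against 32.4% of all promoters, and the antioxidant response element core in 6% against 12.4%. Some of these matches lie after the start, among them the one DRE core of *Cyp2r1* and the antioxidant response element cores of *Cyp2c66* and *Cyp2j6*. No motif searched lies within another, and a match of letters is a description and not a binding site. Several matches lie in promoters that are near copies of each other, and a gene listed with another start counts again. Member promoters are therefore not independent, and their shares were not tested against those of all promoters.

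The pairs are as close in their coding sequence. *Cyp2a4* and *Cyp2a5* differ at 23 of 1485 coding bases (98.5% identity), and *Cyp2a12* and *Cyp2a22* at 45 of 1479 (96.96%). The stretch of 60 bases below, from coding base 596 to 655, holds 4 of the differences between *Cyp2a4* and *Cyp2a5*, in capitals, and shows how few bases separate a read of one from a read of the other.
*Cyp2a4*: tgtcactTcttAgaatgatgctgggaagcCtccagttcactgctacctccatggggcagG
*Cyp2a5*: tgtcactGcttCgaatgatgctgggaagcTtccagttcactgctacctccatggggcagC

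Because uniquely mapped pairs were counted, a few reads of an abundant gene may have been given to its rare copy, so values of *Cyp2a4* and *Cyp2a22* are uncertain. In vehicle libraries at 2 h the *Cyp2a4* count was 0% to 0.671% of the *Cyp2a5* count, at 120 h it was 2.06% to 12.7%, and at 120 h with TCDD it was 6.55% to 17.96%. The share thus differed between groups.

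Several libraries stood apart from their labels, and values that rest on them are given with and without them. By 12199 genes other than the members, 110 libraries lay nearest to their own time point and 31 were 1 time step away, but 2 were 3 or more steps away. These were PkmΔDRE vehicle replicate 4 at 4 h, which lay nearest to 96 h, and PkmΔDRE vehicle replicate 4 at 96 h, which lay nearest to 4 h, and they are called the displaced libraries below. In 4 more libraries, *Cyp1a1*, the standard reporter of AHR activation, went against the treatment label: it reached 3253 CPM (counts scaled to library size) in WT vehicle replicate 1 at 48 h and 1641 CPM in WT vehicle replicate 3 at 96 h, and only 1.36 CPM in WT TCDD replicate 4 at 2 h and 27.6 CPM in WT TCDD replicate 4 at 72 h. *Pkm* itself rose with TCDD under the PkmΔDRE label (419.9 against 154.5 CPM at 24 h, group means of 4) and not under the WT label (81.9 against 86.96 CPM), against the deletion, so WT and PkmΔDRE mean here the libraries so labelled. Libraries held 13588848 to 30719161 counts on genes.

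In freshly plated cells the members together made up 2.27% of all counts. The summed level over the 55 genes was 22730 ± 3410 CPM (SD, n = 8 vehicle libraries) at 2 h, and ran from 16350 to 26020. It was 11700 ± 1306 CPM at 8 h, 8163 ± 1486 CPM at 12 h and 4268 ± 783 CPM at 24 h, and the 24 h libraries lay below every 2 h library. At 120 h it was 774 ± 462 CPM. In the bulk RNA measured here, fewer hepatocytes and less of a transcript per hepatocyte cannot be told apart. The summed level of 6 hepatocyte markers (*Alb*, *Apoa1*, *Ttr*, *Serpina1a*, *Fgb* and *Cps1*) ran from 141600 to 245700 CPM in vehicle at 2 h and from 2860 to 17210 CPM at 120 h, all 6 staying above 1 CPM. The sum of the cholangiocyte markers *Krt19*, *Epcam* and *Spp1* was 4.88 to 28.1 CPM at 2 h and 442 to 1049 CPM at 120 h. Over the same times the sum of 5 stellate cell or fibroblast markers went from between 4.17 and 13.9 CPM to between 15.3 and 209.7 CPM, that of 5 Kupffer cell markers from between 111.5 and 321 CPM to between 5.42 and 66.2 CPM, and that of 5 liver endothelial markers from between 161 and 291 CPM to between 20.6 and 52.4 CPM. The part of any of these in the members' fall was not tested.

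**Figure D1:**
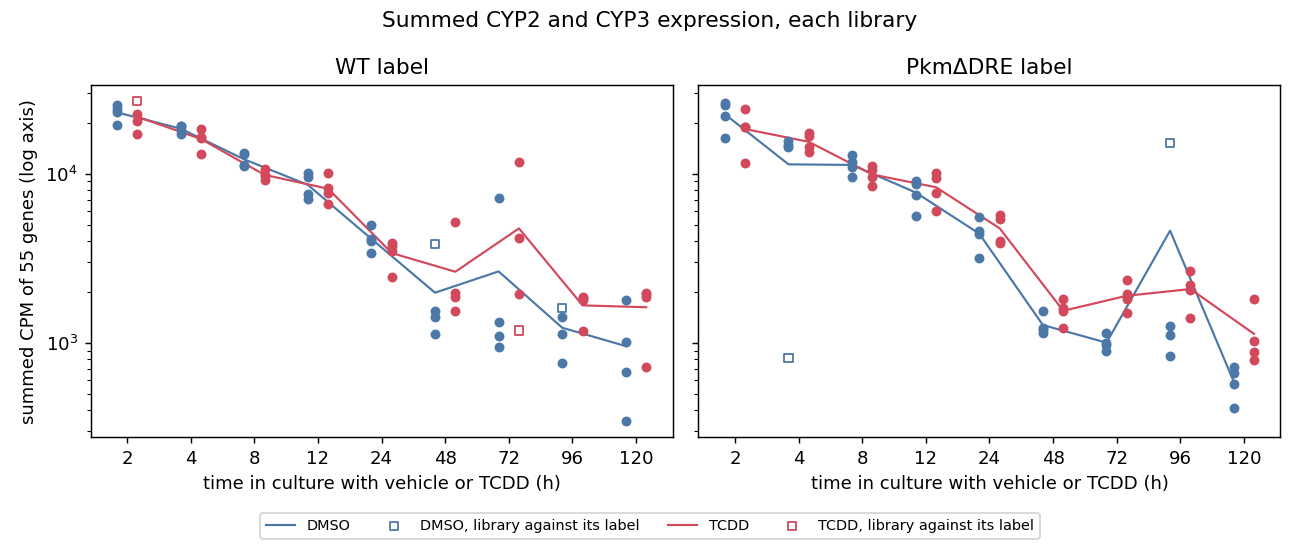
Summed level of the 55 *Cyp2* and *Cyp3* genes (CPM, log axis) against time in culture (h), 1 panel per label, with each library as a point, the group mean as a line, and open squares for the libraries that stood against their label. The vehicle libraries fell from 22730 CPM on average at 2 h to 774 CPM at 120 h, and the 2 displaced PkmΔDRE vehicle libraries lie at 813 CPM at 4 h and 15200 CPM at 96 h.

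At 2 h *Cyp2e1*, the enzyme that oxidizes ethanol and acetaminophen, had the highest level per kilobase of transcript. On that scale its mean in vehicle was 2385 CPM per kb, followed by *Cyp2f2* (1431), *Cyp2d26* (1099), *Cyp2d10* (934), *Cyp2d9* (763), *Cyp2c70* (499), *Cyp3a11* (397), *Cyp2c29* (350), *Cyp2a12* (317) and *Cyp2c23* (266). Each gene overlapped the next in this order in its range over the 8 libraries, so the order of neighbours is not beyond their spread. At 24 h the order had changed to *Cyp2c70* (384 CPM per kb), *Cyp2b10* (279), *Cyp2d26* (207), *Cyp2d10* (206), *Cyp2f2* (180) and *Cyp2e1* (136.7), and at 120 h *Cyp2a5* stood first (109.2 CPM per kb), before *Cyp2c70* (53.98) and *Cyp2d10* (37.8). *Cyp2a5* was already at 108.8 CPM per kb at 2 h, so it came first as others fell. The other listed pericentral members (those concentrated around the central vein) ranked from 15 (*Cyp2c50*) to 33 (*Cyp2c54*) at 120 h, with *Cyp2e1* at 32.

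Most members fell over time in culture in both labels. In vehicle at 24 h against 2 h, 30 of 43 tested members fell and 2 rose in WT, and 32 fell and 1 rose in PkmΔDRE, with adjusted p-values below 0.05 and changes of 1.5-fold or more (edgeR quasi-likelihood test, 1 fit of all libraries). Over all genes tested, 18.4% fell and 21.3% rose in WT, and 18.6% fell and 21.3% rose in PkmΔDRE, so that 39.7% and 39.9% were called. At 120 h against 2 h, 32 members fell and 2 rose in WT, and 30 fell and 2 rose in PkmΔDRE, against 23% and 23.6% of all genes falling and 29.7% and 29.9% rising (52.7% and 53.5% called). The median member changed by -2.78 (WT) and -2.83 (PkmΔDRE) on the log2 scale at 24 h and by -4.17 and -3.95 at 120 h, while the median over all genes lay between 0.15 and 0.25.

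The deepest fall was that of *Cyp2e1*. Its level in the WT vehicle libraries at 2 h was 3782, 5493, 5941 and 4932 CPM, and in PkmΔDRE 5638, 3427, 7208 and 4754 CPM. At 120 h it was 0.0315, 0.647, 0.721 and 0 CPM in WT and 0, 0.101, 0.0756 and 0.134 CPM in PkmΔDRE. Every 120 h library was thus below 1 CPM, and 0.00415% of the 2 h mean was left. The log2 fold change was -13.86 (SE 1.51, adjusted p = 1.9e-13, edgeR) in WT and -15.90 (SE 1.66, adjusted p = 2.0e-14) in PkmΔDRE, and at 24 h it was already -4.41 and -3.89.

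The fall was graded over the other members. *Cyp2c54*, *Cyp3a11* and *Cyp3a25* had 0.0652%, 0.0956% and 0.0987% of their 2 h mean left at 120 h. Of these *Cyp3a11*, the main drug-inducible CYP3A of mouse liver, went from a mean of 2024 to 1.93 CPM, and *Cyp3a25* from 311.5 to 0.307 CPM. *Cyp2f2*, known for the bioactivation of naphthalene, had 0.299% left, the polyunsaturated fatty acid epoxygenases *Cyp2c29* and *Cyp2c37* 0.349% and 0.365%, *Cyp2d9* 1.09% and *Cyp2a12* 3.41%. *Cyp2c70*, which makes the muricholic acids of mouse bile, was at 118.6% of its 2 h mean at 12 h and at 10.8% at 120 h. It was not called at 24 h (log2 fold change -0.52, adjusted p = 0.30 in WT, and -0.20, adjusted p = 0.72 in PkmΔDRE) and was called at 120 h (-2.93, adjusted p = 5.52e-09, and -3.70, adjusted p = 4.92e-12).

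*Cyp2b10*, a standard reporter of CAR activity, rose before it fell. In WT vehicle libraries it was at 70.1, 108.8, 152 and 150 CPM at 2 h, at 636, 780, 1065 and 1071 CPM at 12 h and at 499, 394, 443 and 672 CPM at 24 h. In PkmΔDRE it was at 156, 185, 144.3 and 59.2 CPM at 2 h and at 773, 553, 443 and 934 CPM at 24 h. No 24 h library overlapped the 2 h libraries of its label. The log2 fold change at 24 h was 2.06 (SE 0.49, adjusted p = 0.00033) in WT and 2.31 (SE 0.49, adjusted p = 6.9e-05) in PkmΔDRE, and at 120 h it was -2.31 and -2.90. Relative to 2 h the *Cyp2b10* mean was 526% (8 h), 625% (12 h), 459% (24 h) and 16.6% (120 h).

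**Figure D2:**
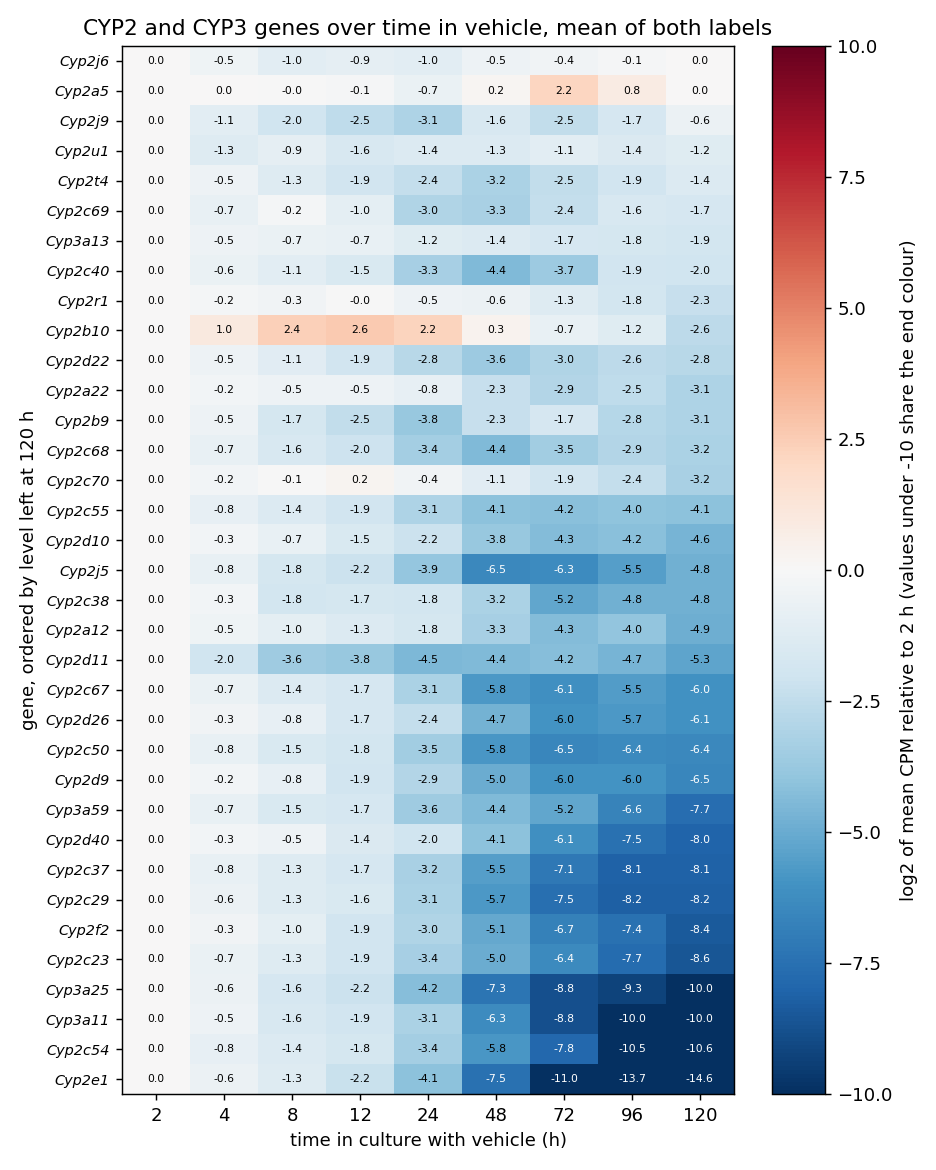
Heat map of the mean CPM in vehicle libraries relative to 2 h (log2, colour) for 35 member genes over time in culture (h), both labels together and without the 2 displaced libraries. *Cyp2b10* is above its 2 h level from 4 to 48 h, *Cyp2a5* and *Cyp2j6* end near it (100.4% and 103.1%), and *Cyp2e1* ends lowest, at 0.00415%.

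The members that did not pass the test at 120 h included *Cyp2a5*, the coumarin and nicotine hydroxylase, and *Cyp2j6*. *Cyp2a5* was at 225.6 ± 83.9 CPM at 2 h and 226.4 ± 165.1 CPM at 120 h (SD, n = 8), and its log2 fold change was 0.21 (adjusted p = 0.80) in WT and -0.36 (adjusted p = 0.65) in PkmΔDRE. Its mean at 72 h was 446% of the 2 h mean, which rests on 1 WT library at 6067 CPM. *Cyp2j6*, of a family that acts on arachidonic acid, was at 59.6 CPM at 2 h, 29.4 CPM at 24 h and 61.4 CPM at 120 h. It fell at 24 h in both labels (-1.05 and -0.98) and gave -0.13 (adjusted p = 0.71) and 0.25 (adjusted p = 0.45) at 120 h.

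By role, the listed members with endogenous substrates were mixed. The vitamin D 25-hydroxylase *Cyp2r1* and the fatty acid hydroxylase *Cyp2u1*, both conserved enzymes, had lower levels and milder falls. *Cyp2j9* and *Cyp2j6* had 68.2% and 103.1% of their 2 h mean left at 120 h, but *Cyp2c23* and *Cyp2j5* only 0.263% and 3.65%. *Cyp2r1* went from 7.36 to 1.498 CPM and *Cyp2u1* from 8.97 to 3.91 CPM between 2 and 120 h, with log2 fold changes of -2.11 and -1.24 in WT. Of the 8 CAR and PXR inducible members, 7 fell and 1 (*Cyp2b10*) rose at 24 h, and 8 of 8 fell at 120 h, in both labels. Of the 7 pericentral members 6 fell at each time in each label, the exception being *Cyp2a5*. The 5 female-predominant members tested all had low levels at 2 h. *Cyp2a4*, *Cyp2b9*, *Cyp2c40*, *Cyp2c69* and *Cyp3a44* averaged 0.470, 1.35, 6.92, 1.89 and 0.292 CPM, and 3 of the 5 fell at 24 h in WT and 2 in PkmΔDRE. Of all genes 18.4% (WT) and 18.6% (PkmΔDRE) fell at 24 h and 23% and 23.6% at 120 h.

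By subfamily, 10 of 13 tested *Cyp2c* genes fell at 24 h in each label, and 11 in WT and 10 in PkmΔDRE at 120 h. Of 8 *Cyp2d* genes 7 fell in WT and 8 in PkmΔDRE at 24 h, and 7 and 6 at 120 h. Of 5 tested *Cyp3a* genes 4 fell at 24 h in each label, and 5 in WT and 4 in PkmΔDRE at 120 h. The shares of all genes that fell were 18.4% (WT) and 18.6% (PkmΔDRE) at 24 h and 23% and 23.6% at 120 h. *Cyp3a13* kept the most of the called *Cyp3a* genes, with 27.6% of its 2 h mean at 120 h (-1.80 and -1.92).

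Some of the largest fitted changes belonged to genes with few reads. *Cyp2d34* was at 0 to 1.29 CPM at 2 h and at 0 in all 8 vehicle libraries at 24 h, *Cyp2s1* was at 0 in the 4 PkmΔDRE vehicle libraries at 24 h, and *Cyp2d12* did not exceed 1.22 CPM at 2 h. *Cyp2d11* went from 7.62 to 0.343 CPM between 2 and 24 h. *Cyp2b23*, at 0 in all 8 libraries at 2 h, reached at most 0.928 CPM at 24 h. *Cyp2c65*, known from the intestine, was at 0 in all 8 vehicle libraries at 2 h and at 0.134 to 1.61 CPM at 120 h, so the calls of a rise in both labels rest on a start with no reads. *Cyp2a4* was also called higher at 120 h (5.75 in WT and 3.47 in PkmΔDRE on the log2 scale), from 0.470 to 11.6 CPM, with the uncertainty of its copy *Cyp2a5*. *Cyp2g1*, *Cyp2t4* and *Cyp2w1*, the leading or sole members of their subfamilies, averaged 0.227, 2.52 and 0.0676 CPM at 2 h.

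The partners of the enzymes fell as well. *Por*, *Cyb5a*, *Cyb5r3*, *Pgrmc1* and *Alas1*, which supply electrons or heme, were 5 of 5 lower at 24 h and at 120 h in both labels, with a median log2 fold change of -1.32 in WT and -1.58 in PkmΔDRE at 120 h. Of all genes 18.4% (WT) and 18.6% (PkmΔDRE) fell at 24 h and 23% and 23.6% at 120 h. Of 18 receptors and factors that control P450 genes, 10 fell in each label at 120 h, and 5 rose in WT and 6 in PkmΔDRE. As 29.7% and 29.9% of all genes rose at 120 h, these rises were near the general share. The CAR gene *Nr1i3* fell by 8.39 (WT) and 8.42 (PkmΔDRE) on the log2 scale. *Cebpa* changed by -2.39 and -2.27, *Ppara* by -1.96 and -2.33, *Hnf4a* by -1.76 and -1.85 and *Nr1i2* by -1.51 and -2.28, whereas *Ahr* rose by 1.06 and 1.34 and the glucocorticoid receptor gene *Nr3c1* by 1.47 and 1.47.

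TCDD against time-matched vehicle was first tested as the mean over 2 to 12 h. No member was called in either label (edgeR; 1 of 43 members in each label at an unadjusted p-value under 0.05, and 0 by DESeq2), where 16.1% of all genes were called in WT and 1.59% in PkmΔDRE (14.8% and 0.562% higher). In the separate comparison at 8 h in WT, 9 of 32 members tested were called, against 37.4% of all genes. 5 of the 9 were higher with TCDD and 4 were lower. Pairs left off genes for any reason made up 25.7% to 48.0% in these 4 TCDD libraries and 25.1% to 30.1% in their vehicle libraries. Pairs that mapped outside every gene, a part of these, made up 7.21% to 15.6% with TCDD and 3.94% to 4.84% with vehicle. With this smaller share in the model 8 were called, but it did not overlap between treatments, so it cannot be told apart from TCDD.

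At 8 h in WT *Cyp2b10* read 546, 576, 594 and 604 CPM with vehicle and 280, 315, 328 and 356 CPM with TCDD. All 4 TCDD libraries were lower, with a log2 fold change of -0.73 (SE 0.13, adjusted p = 0.00146, edgeR). *Cyp2d40*, *Cyp2d26* and *Cyp2d10* were lower by -0.86, -0.63 and -0.59. *Cyp2j5* (0.93, adjusted p = 0.00142), *Cyp3a11* (0.95, adjusted p = 0.0172), *Cyp3a59* (1.00), *Cyp2j6* (0.70) and *Cyp3a25* (0.66) were higher. In PkmΔDRE at 8 h no member was called, nor at 2, 4, 12 or 24 h in either label (edgeR, with 0 to 4 members at an unadjusted p-value under 0.05, and 0 by DESeq2). Of all genes, 0.0321% and 0.373% were called in WT at 12 and 24 h, 0.106%, 0.024% and 0.016% in PkmΔDRE at 8, 12 and 24 h, and 0% in the comparisons at 2 and 4 h.

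After the first day, the members raised by TCDD were mainly genes of the chromosome 7 run. Averaged over 24 to 120 h, *Cyp2a5* and *Cyp2a12* were higher with TCDD in both labels, and *Cyp2a4*, *Cyp2a22* and the barely detected *Cyp2b23* were higher in PkmΔDRE. In WT 2 of 43 members were called, both up, against 2.27% of all genes (12 members at an unadjusted p-value under 0.05). In PkmΔDRE 5 were up and 6 were down, against 1.93% and 2.42% of all genes (4.36% together; 18 at an unadjusted p-value under 0.05). Leaving out the 2 displaced libraries gave 4 up and 1 down of 44 in WT (2.77% of all genes called) and 6 up and 1 down of 44 in PkmΔDRE (4.64%). Both displaced libraries are PkmΔDRE vehicle, so the WT calls changed only through the 1 fit that all libraries share.

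The run holds the *Cyp2a*, *Cyp2b*, *Cyp2f*, *Cyp2g*, *Cyp2s* and *Cyp2t* genes, 13 members of which 11 were tested. All members called higher in these means belonged to it: 5 of its 11 in PkmΔDRE (6 without the displaced libraries) and 2 in WT (4 without them), and none of the other 32 (33) in either label. Its median log2 fold change was 1.17 in PkmΔDRE and 0.69 in WT, against -0.48 and -0.24 for the other members, and 1.51 and 0.70 against -0.05 and -0.22 without the displaced libraries. The run was picked out after its values were seen, and as several of its genes are near copies they are not independent.

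*Cyp2a5* is a known target of both AHR and NRF2. In PkmΔDRE at 48 h it read 70.5, 17.1, 31.1 and 28.2 CPM with vehicle and 578, 270, 301 and 149 CPM with TCDD, with no overlap (log2 fold change 3.12, SE 0.52, adjusted p = 0.0442, edgeR, where 0.404% of all genes were called). At 72 h it read 301, 76.95, 192 and 280 CPM against 1404, 594, 698 and 1204 CPM, again apart (2.17, SE 0.42, adjusted p = 0.0277, 1.13% called).

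At 96 h *Cyp2a5* read 238, 479, 185 and, in the displaced library, 123.9 CPM against 1147, 1289, 865 and 662 CPM, and at 120 h 202, 138.4, 68.1 and 161 CPM against 540, 947, 219 and 269 CPM. The TCDD libraries lay above every vehicle library at 4 of the 5 times from 24 h on. At 24 h they overlapped, since the highest vehicle library, at 324 CPM, lay above 2 of the 4 TCDD libraries. The mean over the 5 times rose by 2.07 on the log2 scale (SE 0.30, adjusted p = 7.24e-08) with all libraries and by 2.01 (SE 0.31, adjusted p = 2.64e-07) without the displaced ones.

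In WT the vehicle libraries were higher and more scattered. At 72 h *Cyp2a5* read 256, 412, 6067 and 470 CPM with vehicle and 1069, 3308, 9886 and, in the library with low *Cyp1a1*, 392 CPM with TCDD. At 120 h it read 217, 550, 82.01 and 393 CPM against 1151, 1205, 286 and 1215 CPM. With all libraries the groups overlapped at all 5 times, and without the doubtful ones the TCDD libraries lay above the vehicle libraries at 48 h. No member was called at 48 or 72 h (edgeR, 0 members at an unadjusted p-value under 0.05, and 0 by DESeq2, where at most 0.00763% of all genes were called). Without the 4 libraries whose *Cyp1a1* went against treatment 0 were called as well, with 4 members at an unadjusted p-value under 0.05 at each time. The mean change of *Cyp2a5* was 1.03 (SE 0.29, adjusted p = 0.0229), 1.05 without the displaced libraries and 1.58 without all 6 doubtful libraries, where 3.89% of all genes were called. As 4 of the 6 were picked by *Cyp1a1* going against treatment, leaving them out can itself widen the change of an AHR-linked gene.

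*Cyp2a12*, a steroid and bile acid hydroxylase, also rose. In PkmΔDRE at 72 h it read 37.2, 54.8, 64.6 and 31.4 CPM with vehicle and 193, 148, 263 and 101.5 CPM with TCDD (log2 fold change 1.91, SE 0.31, adjusted p = 0.0121). At 120 h it read 20.9, 23.8, 18.5 and 16.4 CPM against 45.7, 138.5, 138.1 and 80.2 CPM (2.32, SE 0.32, adjusted p = 0.011, where 0.633% of all genes were called). At both times all TCDD libraries lay above all vehicle libraries. In PkmΔDRE at 96 h the displaced vehicle library read 702 CPM and the other 3 read 62.6, 55.8 and 70.5 CPM, against 195, 273, 315 and 135.5 CPM with TCDD. The mean over 24 to 120 h was 1.17 (SE 0.23, adjusted p = 0.000108) with all libraries and 1.51 (SE 0.19, adjusted p = 4.96e-10) without the displaced ones.

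In WT *Cyp2a12* stood apart at 96 h (and at 48 h without the vehicle library with high *Cyp1a1*). At 96 h it read 73.7, 34.4 and 83.8 CPM in 3 vehicle libraries and 144.3, 192, 179 and 206 CPM with TCDD, and the vehicle library with high *Cyp1a1* lay between (1.37, SE 0.28, adjusted p = 0.0069). At 120 h the TCDD libraries read 124.8, 128.2, 26.2 and 125.8 CPM and overlapped the vehicle libraries, of which the lowest read 4.87 CPM and 1 lay above all of them. The WT mean change was 0.79 (SE 0.23, adjusted p = 0.0253). In all, 6 of 29 members were called at 96 h in WT, where 15.1% of all genes were: *Cyp2f2* (1.29, SE 0.14, adjusted p = 0.000246), *Cyp2a12*, *Cyp2a4* (1.55), *Cyp2a22* (1.75) and *Cyp2c23* (0.73) up and *Cyp2c50* (-1.26) down. When the share of pairs that mapped outside every gene was added to the model 3 were called. Without the vehicle library with high *Cyp1a1* there were 8, with *Cyp2a5* (0.98) and *Cyp2b10* (0.91) added, where 14.7% of all genes were called. That library was also picked by *Cyp1a1*, with the same limit.

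The call for *Cyp2f2* depended on the displaced libraries. In PkmΔDRE at 96 h it read 26.3, 7.98 and 14.4 CPM in 3 vehicle libraries and 2558 CPM in the displaced one, against 58.2, 47.2, 84.4 and 37.4 CPM with TCDD. At 120 h it read 4.83, 3.95, 2.95 and 6.35 CPM against 10.9, 41.7, 32.01 and 23.2 CPM, apart at every library (2.58, SE 0.38, adjusted p = 0.0158). The late mean was not called with all libraries and was 1.13 (SE 0.19, adjusted p = 2.6e-06) in PkmΔDRE and 0.70 (SE 0.18, adjusted p = 0.00812) in WT without the displaced ones. The WT value was 0.69 with all libraries, so its call changed through the shared fit and not through WT libraries.

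*Cyp2a4*, a steroid 15α-hydroxylase of female liver, followed *Cyp2a5*. In WT at 120 h it read 8.16, 15.2, 10.4 and 27.6 CPM with vehicle and 116.5, 114.1, 36.01 and 120.2 CPM with TCDD, with no overlap (log2 fold change 2.61, SE 0.51, adjusted p = 0.0492). This and *Cyp2c50* were the 2 of 29 members called at 120 h in WT, where 1.46% of all genes were, and neither was called with RLE scaling, where 1.4% of all genes were. In PkmΔDRE at 120 h it read 16.6, 9.35, 1.85 and 3.31 CPM against 77.3, 170, 14.4 and 17.7 CPM, which overlap. The PkmΔDRE mean over 24 to 120 h was 2.26 (SE 0.50, adjusted p = 0.000774). *Cyp2a22* (1.89, SE 0.38, adjusted p = 0.000216 in PkmΔDRE) stayed under 5 CPM in every late library, with 0 to 6 counts in the PkmΔDRE vehicle libraries at 72 h. *Cyp2b23* (2.36, SE 0.72, adjusted p = 0.0281) had at most 8 counts in any late PkmΔDRE library, so its fitted change has little depth behind it.

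**Figure D3:**
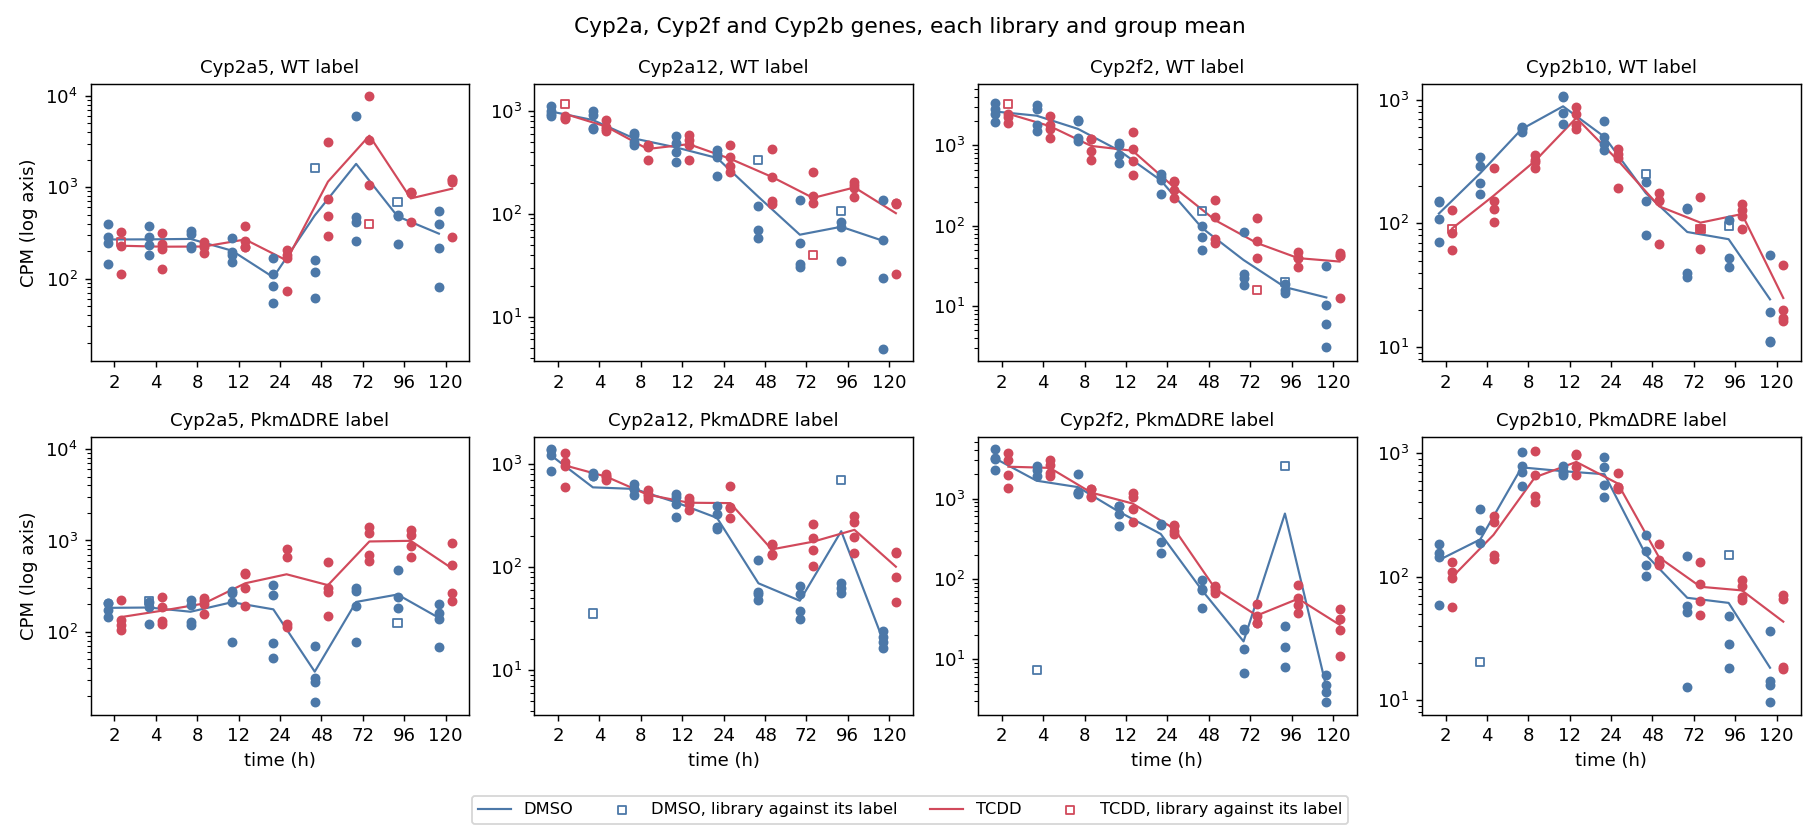
CPM (log axis) of *Cyp2a5*, *Cyp2a12*, *Cyp2f2* and *Cyp2b10* against time (h) for vehicle and TCDD, 1 row per label and 1 column per gene. Each library is a point, with lines through the group means and open squares for the doubtful libraries. *Cyp2a5* under the PkmΔDRE label shows TCDD libraries above vehicle libraries at 48, 72, 96 and 120 h, and *Cyp2f2* shows the displaced vehicle library at 2558 CPM at 96 h.

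*Cyp2b10* and the remaining members of the run gave less. In PkmΔDRE at 96 h *Cyp2b10* read 47.9, 18.2 and 28.5 CPM in 3 vehicle libraries and 151 CPM in the displaced one, against 64.2, 68.2, 93.8 and 83.3 CPM with TCDD, and was called only without the displaced library (1.25, adjusted p = 0.0453). *Cyp2s1*, which AHR is known to induce in other tissues, did not exceed 12.3 CPM, in 1 WT TCDD library at 72 h. It had enough reads for 6 of the 18 time comparisons, and it passed none of these and no mean over times. In WT its TCDD libraries lay above the vehicle libraries at 1 of the 5 late times.

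Counts per time point in PkmΔDRE were small. *Cyp2a5* was the 1 member called at 48 h, *Cyp2a5* and *Cyp2a12* at 72 h, and *Cyp2a12* and *Cyp2f2* at 120 h, all higher with TCDD. At 96 h 0 of 33 members were called with all 8 libraries by edgeR, where 0.0793% of all genes were, 14 members had an unadjusted p-value under 0.05, and DESeq2 called 2. Without the displaced library edgeR called 5 at 96 h (2.25% of all genes): *Cyp2a12* (1.80, adjusted p = 0.00453), *Cyp2f2* (1.76), *Cyp2a5* (1.64) and *Cyp2b10* (1.25) higher and *Cyp3a11* (-2.23, SE 0.51, adjusted p = 0.049) lower.

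Among the members lower with TCDD, *Cyp2c50*, an epoxygenase of the *Cyp2c* group on chromosome 19, read 7.60, 2.98, 5.75 and 6.85 CPM with vehicle and 2.73, 2.51, 2.09 and 1.69 CPM with TCDD in WT at 96 h. Every TCDD library was below every vehicle library (log2 fold change -1.26, SE 0.28, adjusted p = 0.00697). In WT at 120 h it read 7.38, 12.0, 2.68 and 8.48 CPM against 2.45, 1.25, 1.88 and 2.32 CPM, apart again (-1.99, SE 0.42, adjusted p = 0.0492), a call lost with RLE scaling. In PkmΔDRE at 120 h it read 3.84, 7.84, 8.13 and 5.72 CPM against 0.664, 2.63, 4.204 and 2.87 CPM, which overlap. The PkmΔDRE late mean was -1.28 (adjusted p = 0.000263) with all libraries and -0.82 (SE 0.21, adjusted p = 0.00448) without the displaced ones.

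The other 5 lower calls in PkmΔDRE rested on the displaced library at 96 h. With all libraries *Cyp3a11* gave -1.88, *Cyp2d40* -1.69, *Cyp2d26* -0.98, *Cyp2d9* -0.86 and *Cyp2j5* -0.86. Without the displaced libraries none was called, and *Cyp2d40* gave -0.69 (adjusted p = 0.0807), *Cyp3a11* -0.67 (adjusted p = 0.178), *Cyp2j5* -0.48, *Cyp2d26* -0.23 and *Cyp2d9* -0.05. At 96 h *Cyp3a11* read 3.81, 1.65, 1.70 and, displaced, 714 CPM with vehicle and 0.210, 0.957, 0.478 and 0.418 CPM with TCDD. In WT, *Cyp2d40* was lower without the displaced libraries (-1.09, SE 0.26, adjusted p = 0.00283), from 0.385, 0.852, 0.678 and 0.581 CPM with vehicle to 0.336, 0.0852, 0.0908 and 0.0937 CPM with TCDD at 96 h, levels of a few reads.

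**Figure D4:**
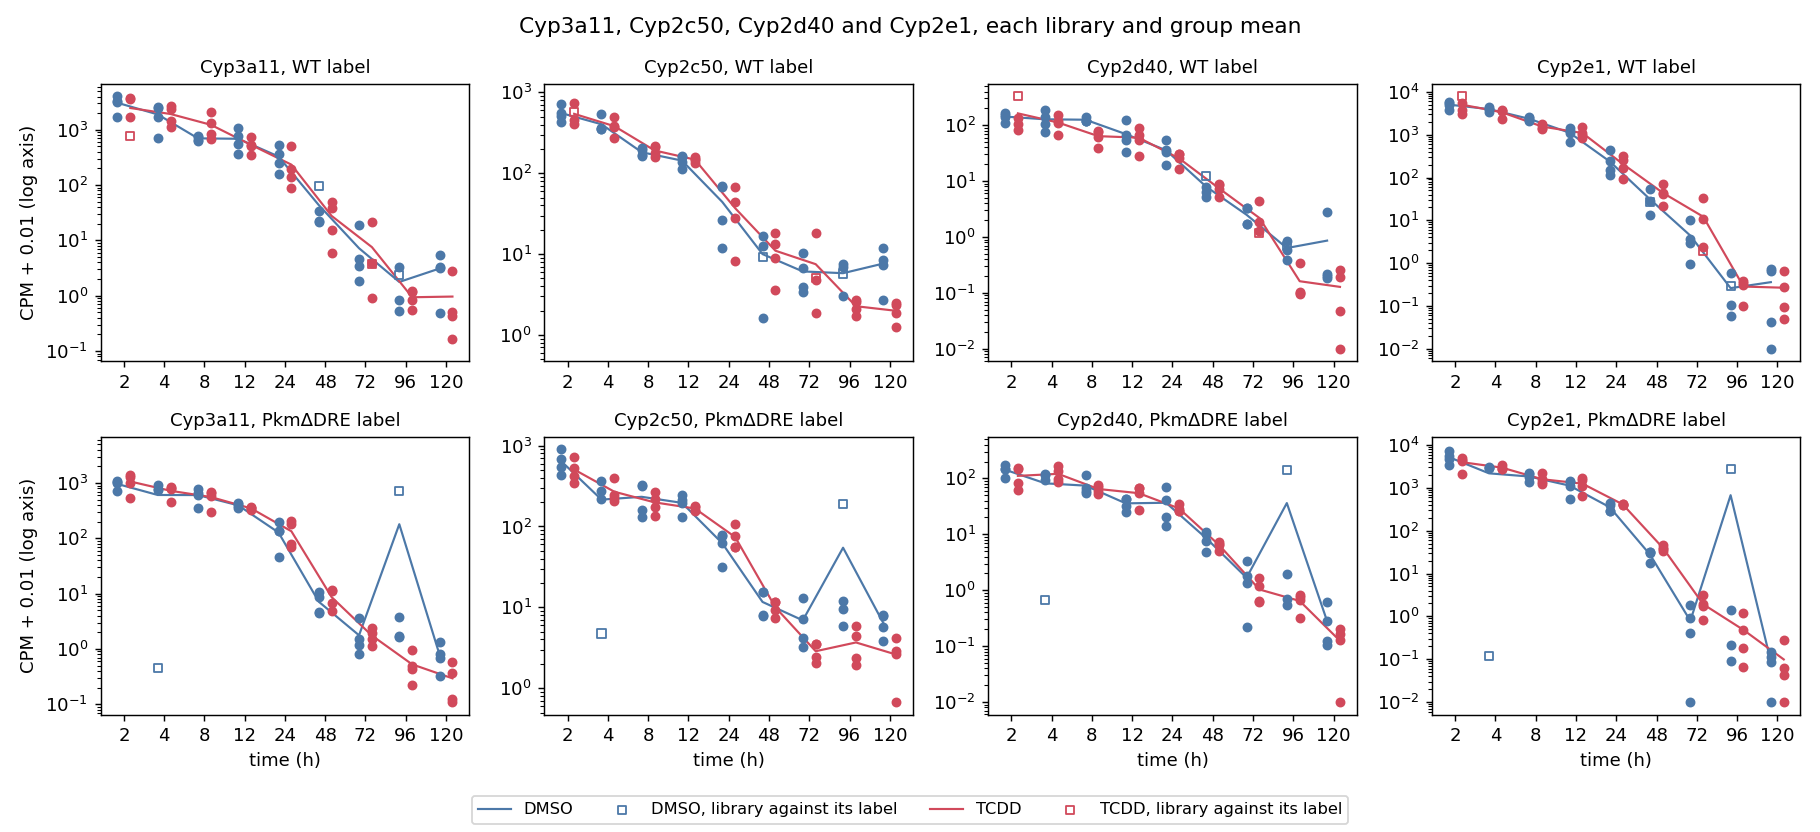
CPM plus 0.01 (log axis) of *Cyp3a11*, *Cyp2c50*, *Cyp2d40* and *Cyp2e1* against time (h) for vehicle and TCDD, 1 row per label and 1 column per gene. Each library is a point, with lines through the group means and open squares for the doubtful libraries. The 4 genes fall over the course in both treatments, and at 96 h under the PkmΔDRE label 1 vehicle library stands at 714 CPM for *Cyp3a11* and 2704 CPM for *Cyp2e1*.

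Both labels were also averaged, since *Pkm* went against them. With all libraries 12 members were called, where 5.14% of all genes were. Without the displaced libraries *Cyp2a4* (2.05), *Cyp2b23* (1.64), *Cyp2a5* (1.53), *Cyp2a22* (1.47), *Cyp2a12* (1.16) and *Cyp2f2* (0.92) were higher and *Cyp2d40* (-0.89), *Cyp2c50* (-0.71) and *Cyp3a11* (-0.70) lower, where 5.30% of all genes were called. Among genes outside the family, *Nr1i3* rose by 2.80 in WT and 4.24 in PkmΔDRE and *Por* by 0.96 and 1.14 in the same fit, while the factor *Onecut1* changed by -1.06 and -0.96. *Cebpb* (0.59) and *Nfe2l2* (0.70), the gene of NRF2, were called in PkmΔDRE. Of the 6 hepatocyte markers 3 fell in WT and 1 in PkmΔDRE, among them *Apoa1* (log2 fold change -1.16 and -0.70), and of the 3 cholangiocyte markers 1 fell in WT and 2 in PkmΔDRE, among them *Krt19* (-1.27 and -1.15). None of either list rose. Of all genes 0.901% fell in WT and 2.42% in PkmΔDRE with all libraries, and 1.2% and 2.42% without the displaced ones. Their part in the members' changes was not tested.

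**Figure D5:**
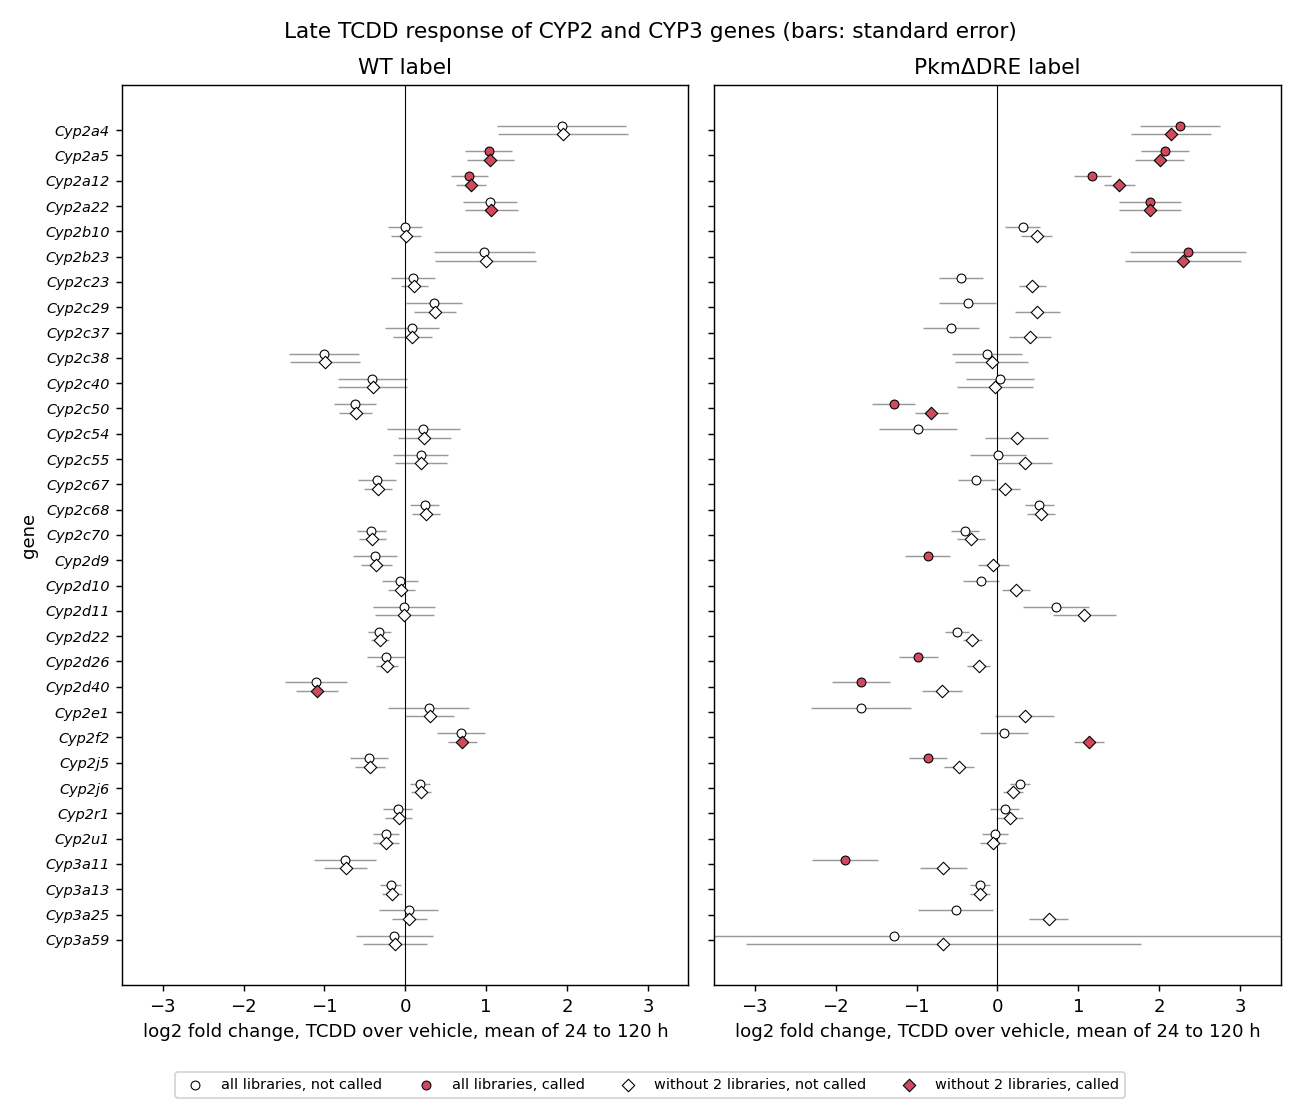
Log2 fold change of TCDD against vehicle, mean over 24 to 120 h, for 33 members with SE bars, 1 panel per label, as circles for all libraries and diamonds without the 2 displaced libraries, red where called. The axis ends at 3.5 on either side, and the bar of *Cyp3a59* under the PkmΔDRE label runs past it. Without the displaced libraries the called genes to the right belong to the chromosome 7 run, led by the barely detected *Cyp2b23* (2.29) and by *Cyp2a4* (2.14), *Cyp2a5* (2.01) and *Cyp2a22* (1.89) under the PkmΔDRE label.

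An interaction contrast asked whether WT and PkmΔDRE libraries responded differently to TCDD. No member was called for 2 to 12 h or for 24 to 120 h (edgeR and DESeq2, 0 and 4 of 43 members at an unadjusted p-value under 0.05, where 0.539% and 0.117% of all genes were called, 0.234% and 0.00556% with a higher response in PkmΔDRE). Calls under 1 label alone are therefore not shown to differ between labels.

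The labels differed in the level of a few members without TCDD. Over 24 to 120 h in vehicle *Cyp2a5* was lower in PkmΔDRE than in WT (-1.62, SE 0.30, adjusted p = 0.000248), as was *Cyp2a22* (-1.48, adjusted p = 0.0172), and *Cyp2c23* (0.94), *Cyp2j5* (0.92) and *Cyp2d26* (0.86) were higher, 5 of 43 members where 1.55% of all genes were called. Without the displaced libraries none was higher, and *Cyp2a5* (-1.55), *Cyp2a22* (-1.48), *Cyp3a11* (-1.48, SE 0.28, adjusted p = 0.000251) and *Cyp2a12* (-0.66, adjusted p = 0.0389) were lower, where 1.14% of all genes were called. Without all 6 doubtful libraries *Cyp3a11* (-1.31) and *Cyp2a5* (-1.10) were called, where 0.881% of all genes were.

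The level of *Cyp3a11* was apart from the start. At 2 h in vehicle it read 1704, 3248, 3334 and 4051 CPM in WT and 1037, 1014, 722 and 1082 CPM in PkmΔDRE, with no overlap. Over 2 to 12 h no member was called with all libraries (5 at an unadjusted p-value under 0.05, 2.72% of all genes called, and 0 by DESeq2), and *Cyp3a11* gave -1.08 (adjusted p = 0.12). Without the displaced libraries it was called (-0.98, adjusted p = 0.0484, where 1.43% of all genes were).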

How the data were processed

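The authors aligned trimmed RNA-seq read pairs to GRCm39 and deposited 1 STAR table of counts per library. Per the labels' processing notes the tools were FastQC 0.11.3, Trimmomatic 0.39, STAR 2.7 and DESeq2. The unstranded column of raw counts per gene was used, and the 4 lines that name no gene (16.8% to 48.0% of pairs) were left out. Symbols, transcript lengths and coding sequences came from GENCODE M21 and promoters from RefSeq, both GRCm38, and all 55 members matched. The members and gene lists were chosen with earlier results of these data known.

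Counts were scaled by TMM and tested with the robust quasi-likelihood test of edgeR 4.0.16 (R 4.3.3), after filterByExpr (minimum count 10, minimum total 15), with Benjamini-Hochberg adjustment over all genes tested. Calls needed an adjusted p-value below 0.05 and a change of 1.5-fold or more. TCDD was compared with time-matched vehicle in 18 fits of 8 libraries. Means over times, culture times, labels and interactions were contrasts in 1 fit of all libraries with 36 group means. The SE is the absolute log2 fold change divided by the square root of the F statistic. CPM use TMM library sizes. Named members were those called in any TCDD comparison, the 10 highest per kilobase in vehicle at 2 h, the highest of each subfamily, the 3 largest called changes in each direction of the culture and label comparisons, and the lists. Alternatives were RLE scaling, no filter, the DESeq2 1.42.0 Wald test, other fits, and leaving out times or libraries. A further alternative added a term for the share of pairs that mapped outside every gene.

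Known changes were put into simulated counts, with the same spread for every gene, a constant mean over time and no doubtful libraries. The fit of WT at 8 h (12479 genes) recovered 29 of 100 genes changed by 1 on the log2 scale. Of 100 genes changed by 2 it recovered 98. The WT mean of 24 to 120 h recovered 100 of 100 at either size (15421 genes). These shares do not carry over to members with few reads or a wide spread between libraries. In the measured WT mean of 24 to 120 h *Cyp2a4* gave 1.93 and *Cyp2a22* 1.04, and neither was called. Precision rests on the counts on genes, 13588848 to 30719161 per library, and on the spread between the libraries of a group.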

Additional observations from a re-analysis of the deposited data

Results flagged for a closer look

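In 34 of 288 groups of 4 libraries (11.8%), 1 library stood apart from the other 3 by Dixon's test at its critical value. The groups were taken over 7 members and the summed level. Chance gives about 1 group in 20 for independent, normally distributed values. The items here come from the same libraries and were tested as untransformed CPM, so their share cannot be set against chance.

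The 2 displaced PkmΔDRE vehicle libraries account for 9 of these groups. At 4 h the library apart read 0.109 CPM for *Cyp2e1* (nearest other 2861), 35.3 CPM for *Cyp2a12* (761) and 813 CPM for the summed level (14390). At 96 h it read 2704 CPM for *Cyp2e1* (1.43), 2558 CPM for *Cyp2f2* (26.3), 714 CPM for *Cyp3a11* (3.81), 702 CPM for *Cyp2a12* (70.5), 191 CPM for *Cyp2c50* (12.1) and 15200 CPM for the summed level (1264).

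In WT vehicle at 48 h *Cyp2a5* stood apart at 1623 CPM (161) and the summed level at 3827 CPM (1541). In WT vehicle at 72 h *Cyp2a5* stood at 6067 CPM (470), the summed level at 7187 CPM (1337), *Cyp2f2* at 84.3 CPM (24.9) and *Cyp3a11* at 18.9 CPM (4.70). In WT with TCDD at 48 h *Cyp2a5* stood at 3090 CPM (738) and the summed level at 5162 CPM (1960), and at 72 h *Cyp3a11* at 21.8 CPM (3.89). In WT with TCDD at 96 h *Cyp2a5* was low at 418.5 CPM (856) and the summed level at 1177 CPM (1784). The library with that summed level, replicate 1, had 11.4% of pairs unmapped, against 3.91% to 6.61% in the rest of its group. Of its counts split by strand 63.3% fell on the first strand, against 50.4% to 51.5%. The part of this in the values at 96 h was not tested.

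In WT with TCDD at 120 h the library apart was low for *Cyp2a5* (286 CPM, nearest 1151), *Cyp2a12* (26.2 CPM, 124.8), *Cyp2f2* (12.6 CPM, 42.2) and the summed level (716 CPM, 1868), and high for *Cyp2b10* (46.3 CPM, 19.9) and *Cyp3a11* (2.75 CPM, 0.502). The other groups were WT vehicle at 4 h for *Cyp2c50* (546 CPM, 365), WT with TCDD at 2 h for *Cyp2a12* (1177 CPM, 882), at 4 h for *Cyp2e1* (2357 CPM, 3574) and at 8 h for *Cyp2a12* (330 CPM, 448), PkmΔDRE vehicle at 8 h for *Cyp2f2* (2034 CPM, 1208) and at 48 h for *Cyp2a12* (117.2 CPM, 57.5) and *Cyp2e1* (17.9 CPM, 29.5), and PkmΔDRE with TCDD at 24 h for *Cyp2b10* (694 CPM, 536).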

How the results depend on the processing

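The culture comparisons and interactions kept their counts within 1.5 times under every alternative run (25 to 34 members called for culture, 0 for the interactions), as did the TCDD mean over 2 to 12 h (0). The WT mean of TCDD over 24 to 120 h (2 members called) gave 0 with no filter and without 48, 72 or 120 h, 1 without 96 h, 4 without 24 h or with a fit per label, 5 with DESeq2, 5 without the 2 displaced or all 6 doubtful libraries, and 12 as the mean of both labels. Leaving out 1 replicate gave 1 to 2. The PkmΔDRE mean (11) gave 4 without 96 h, 7 without the 2 or the 6 libraries, and 7 to 11 without 1 replicate. In it *Cyp2d9* (log2 fold change -0.86) ran from -1.09 to 0.0027 without 1 replicate, changing sign without replicate 4, which removes both displaced libraries. The difference between labels in vehicle over 2 to 12 h (0) gave 1 without the 2 or the 6 libraries and 0 to 2 without 1 replicate. Over 24 to 120 h (5) it gave 2 without all 6 libraries or with vehicle libraries fitted alone, 3 with no filter, without 72 h or without the 4 libraries whose *Cyp1a1* went against treatment, 9 with DESeq2, 12 without 120 h, and 1 to 6 without 1 replicate. Summed over the 9 times, the WT calls (17) gave 0 in 1 fit of all libraries and 12 to 20 without 1 replicate. The PkmΔDRE calls (5) gave 9 with no filter, 11 with DESeq2, 20 in 1 fit of all libraries, 10 without the 2 or the 6 libraries, and 3 to 10 without 1 replicate. Apart from the displaced libraries, the cause of these shifts was not tested. Of the values of single members under the alternatives, 895 kept their side of the threshold, 50 lost a call, 32 gained one and 1 called value changed sign. A change of sign was counted only for values called in the main fit. Uncalled values did change sign, as for *Cyp3a11* in the WT mean over 2 to 12 h (-0.219 to 0.220). The settings that leave out the displaced or doubtful libraries and the mean of both labels were chosen after seeing the data.

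No paired analysis was possible because the labels give no replicate numbers, and those used here only name libraries. Some WT values ran alike by library order in both treatments, though not at every time. At 4 h 14.2%, 14.5%, 8.07% and 9.62% of pairs were unmapped with vehicle and 12.7%, 13.8%, 7.14% and 9.13% with TCDD. At 72 h the summed level was highest in replicate 3 with vehicle (7187 CPM) and with TCDD (11680 CPM). Whether libraries at the same position share a source was not tested. Members below about 1 CPM rest on a few reads per library, so their folds are imprecise, and 12 of the 55 members could not be tested at this depth.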
